A study of Mus musculus with 12 samples.

Results

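The nuclear genes Cox4i1, Cox4i2, Cox6a1, Cox6a2, Cox7a1, Cox7a2, Cox8a and Cox8b, which encode alternative forms of 4 subunits of cytochrome c oxidase, were followed in 12 RNA sequencing libraries of cultured mouse adipocytes. These 8 genes were chosen by name from 24888 listed entries with 24341 distinct symbols, and each of the 8 stood at a single locus. The 12 libraries formed 6 groups of 2. KO-labelled (labelled ATF7KO) and wild-type (WT) preadipocytes from the inguinal white fat of C57BL/6 mice were differentiated with rosiglitazone, an agonist of the nuclear receptor PPARγ, to give beige adipocytes, or without it to give white ones. C3H10T1/2 cells, an established mouse mesenchymal line that can form adipocytes, were differentiated with rosiglitazone, with ATF7 overexpressed or as a control. ATF7 is a transcription factor of the ATF/CREB family. All C3H10T1/2 and all beige libraries therefore share rosiglitazone, the C3H10T1/2 groups stem from 1 cell line, and the labels do not say whether the 2 libraries of a group came from separate cultures, so p-values measure only the spread between these libraries.

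Cytochrome c oxidase (complex IV) passes electrons from cytochrome c to oxygen at the end of the mitochondrial respiratory chain. Its catalytic core is encoded by mitochondrial DNA, and the nuclear subunits surround that core and tune its assembly, stability and activity. Several nuclear subunits exist as a widespread form and as a form restricted to certain tissues. Cox6a2, Cox7a1 and Cox8b encode the forms typical of heart and skeletal muscle, and Cox7a1 and Cox8b are also widely used as markers of brown and beige fat. Cox4i2 encodes a form of subunit IV known from lung that responds to oxygen supply. Cox4i1, Cox6a1, Cox7a2 and Cox8a encode the widespread partners. In the text a pair means the tissue form together with its widespread partner, and the share of a pair is the tissue form's FPKM as a percentage of the summed FPKM of both.

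The 8 genes lie on 6 chromosomes of mm10. The tissue forms are Cox4i2 (chr2:152754173-152765037, plus strand), Cox6a2 (chr7:128205435-128206366, minus strand), Cox7a1 (chr7:30184171-30186030, plus strand) and Cox8b (chr7:140898942-140900446, minus strand). The widespread forms are Cox4i1 (chr8:120668225-120674209, plus strand), Cox6a1 (chr5:115345654-115348955, minus strand), Cox7a2 (chr9:79755241-79759853, minus strand) and Cox8a (chr19:7215158-7217616, minus strand). In the GENCODE annotation Cox6a2 overlaps Itgad, an integrin gene on the other strand, and Cox4i1 overlaps Gm20388 on its own strand and Emc8 on the other. Libraries were directional, but whether the authors counted by strand is not given in the sources used here, so values of overlapping genes are uncertain.

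The RefSeq promoter table of build GRCm38.p6 held 5 of the 8 genes (Cox6a1, Cox7a1, Cox7a2, Cox8a and Cox8b). The 250 bases before the annotated start are shown for the 2 pairs in which both partners were listed and in which the tissue form reached a large share, because within each pair the 2 forms moved by different amounts. Every CG dinucleotide is in capitals, and each run reads 5′ to 3′ on the strand of its gene.
Cox7a1, chr7:30183921-30184170, plus strand: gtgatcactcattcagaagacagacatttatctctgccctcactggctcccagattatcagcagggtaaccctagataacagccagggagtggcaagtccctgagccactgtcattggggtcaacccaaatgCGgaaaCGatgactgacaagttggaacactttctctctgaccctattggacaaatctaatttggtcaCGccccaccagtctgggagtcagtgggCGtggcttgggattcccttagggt
Cox7a2, chr9:79759854-79760103, minus strand: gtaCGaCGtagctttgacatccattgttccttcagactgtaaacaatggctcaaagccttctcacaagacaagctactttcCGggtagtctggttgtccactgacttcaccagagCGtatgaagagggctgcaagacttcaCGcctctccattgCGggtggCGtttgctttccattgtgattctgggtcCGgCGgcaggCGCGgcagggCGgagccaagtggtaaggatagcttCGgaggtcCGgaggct
Cox8b, chr7:140900447-140900696, minus strand: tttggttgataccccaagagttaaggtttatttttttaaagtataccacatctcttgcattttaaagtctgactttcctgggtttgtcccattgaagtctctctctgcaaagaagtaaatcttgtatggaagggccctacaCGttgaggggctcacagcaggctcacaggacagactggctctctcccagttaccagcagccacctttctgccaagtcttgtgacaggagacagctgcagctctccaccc
Cox8a, chr19:7217617-7217866, minus strand: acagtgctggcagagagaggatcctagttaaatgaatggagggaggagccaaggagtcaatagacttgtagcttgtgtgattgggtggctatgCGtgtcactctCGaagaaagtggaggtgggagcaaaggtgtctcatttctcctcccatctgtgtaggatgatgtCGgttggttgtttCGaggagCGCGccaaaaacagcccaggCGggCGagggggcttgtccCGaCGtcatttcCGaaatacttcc

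Both tissue forms had fewer CG dinucleotides before the start than their partners. Cox7a1 had 4 against 14 for Cox7a2, and Cox8b had 1 against 11 for Cox8a, while the median of 32851 such windows was 6. Cox6a1, another widespread form, had 26. Of the 10 motifs searched on both strands, the full cyclic AMP response element TGACGTCA, the site that factors of the ATF/CREB family are known to bind, was in none of the 5 windows and in 1.55% of all windows. Its shorter core ACGTCA occurred once, in Cox8a, with its first base 22 bases before the start (6.47% of all windows hold it). The E-box CAGCTG occurred in Cox8b, 19 bases before the start (13% of all windows), and CCAAT occurred at 2 places in Cox7a1 and once each in Cox6a1 and Cox8a (33.8% of all windows). The GC box GGGCGG was in Cox6a1 and Cox7a2 (32.7% of all windows) and the motif of nuclear respiratory factor 1 (GCGCA and GCGC with 1 base between) was in Cox6a1 alone of the 5 (3.74%). CCGGAAG lay wholly within the 250 bases in Cox6a1 alone (6.91%), whereas TATAAA (12.4%), AGGTCA (14%) and the muscle factor MEF2 motif (CTA and TAG with 4 bases between, 3.2%) did so in none of the 5. Some matches reached past the start. CCGGAAG in Cox8a began 5 bases before the start and crossed it, and occurred again at base 33 counted from the start. In Cox8b TATAAA was at base 5 and CAGCTG also at base 17. The percentages count letter matches wholly within the 250 bases, and no binding was measured.

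The unit was FPKM, in which fragments are divided by transcript length and by the library's total, so levels can be set beside each other per length. Read depth is unknown. The summed FPKM was 225536 to 272371 per library, and replicates correlated at a Pearson's r of 0.984 to 0.992 across entries on log2 values. Atf7 itself was listed at 7.26 and 7.94 FPKM in KO-labelled beige libraries, against 7.80 and 7.83 FPKM in WT beige libraries. In white cultures Atf7 was at 6.88 and 7.73 FPKM in KO-labelled libraries, against 9.10 and 7.10 FPKM in WT libraries. The gene-level value therefore does not check the knockout label, since a deletion of part of a gene need not lower it. Atf7 was at 41.2 and 39.1 FPKM with overexpression, against 8.52 and 9.09 FPKM in control C3H10T1/2 cells. Ucp1, the uncoupling protein that marks beige and brown adipocytes, was at 51.6 and 24.5 FPKM in KO-labelled beige and at 19.1 and 17.2 FPKM in WT beige libraries, and was listed at 0 in all 4 white libraries.

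**Figure D1:**
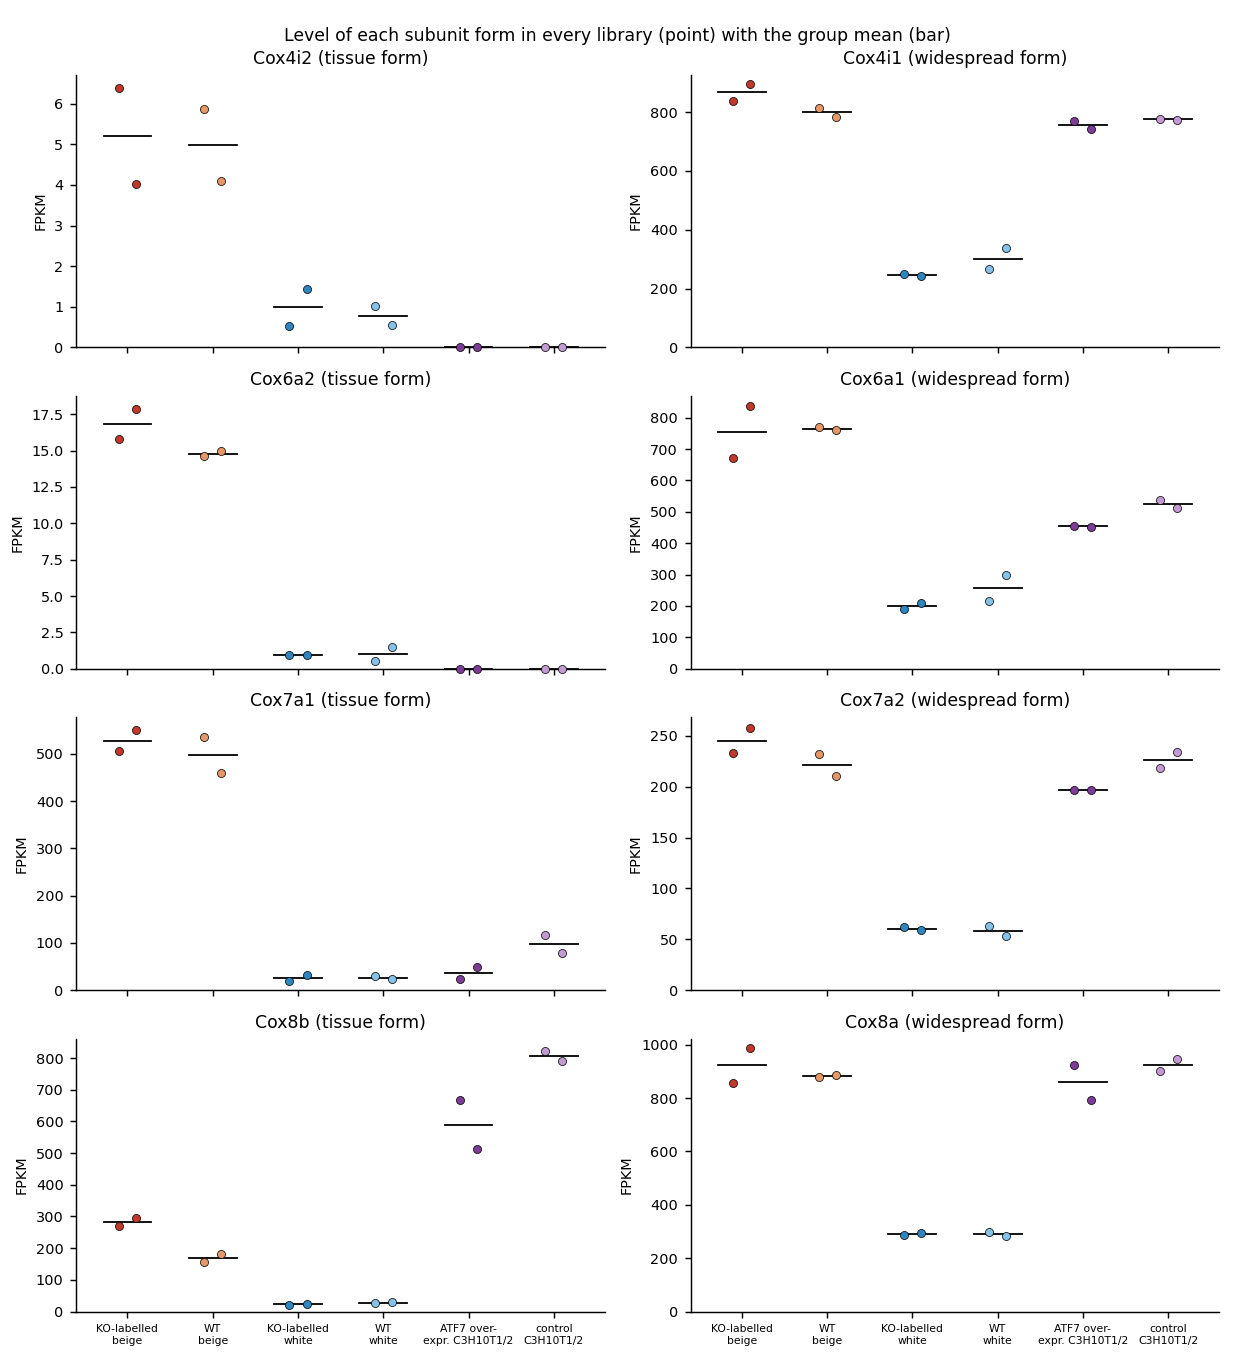
FPKM (linear axes, from 0) of the 4 tissue forms (left) and their widespread partners (right) in every library, with points for the 2 libraries of a group and a bar for their mean. Cox4i2 and Cox6a2 stayed under 20 FPKM and were listed at 0 in C3H10T1/2, Cox7a1 was highest in primary beige cultures, and Cox8b was highest in C3H10T1/2.

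All 8 genes were higher in beige than in white cultures of both genotypes, and the tissue forms Cox7a1, Cox6a2 and Cox8b moved further than any widespread form. In this comparison rosiglitazone is the labelled difference. Changes were called with limma on log2(FPKM + 1) at a Benjamini-Hochberg adjusted p under 0.05 across all genes tested. In KO-labelled cultures 8 of 8 genes rose, where 26.6% of all tested genes were called higher and 61% were called in either direction. In WT cultures 8 of 8 rose, where 21.6% of all tested genes were called higher and 53.7% in either direction. The median log2 fold change of the 8 was 1.95 in KO-labelled and 1.83 in WT cultures, beside a median of -0.06 and -0.10 for all genes tested.

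Cox7a1, the muscle-type form of subunit VIIa, was at 505 and 551 FPKM in KO-labelled beige, against 19.3 and 32.4 FPKM in KO-labelled white cultures. In WT it was at 535 and 460 FPKM in beige cultures, against 29.1 and 24.0 FPKM in white cultures. Every beige library was far above every white one. The log2 fold change was 4.34 in KO-labelled and 4.18 in WT cultures (SE 0.22 each, limma adjusted p 8.12e-07 and 1.62e-06), and in WT only 0.0974% of tested genes had a larger one. Its partner Cox7a2 was at 233 and 258 FPKM in KO-labelled beige, against 62.1 and 58.7 FPKM in KO-labelled white cultures. Cox7a2 was at 232 and 210 FPKM in WT beige, against 62.9 and 53.2 FPKM in WT white cultures. Cox7a2 also rose, with log2 fold changes of 2.00 and 1.92 (SE 0.12 each, adjusted p 2.01e-06 and 4.24e-06). The member of the pair with the higher FPKM thus differed between the cultures. Cox7a1 exceeded Cox7a2 in the 4 beige libraries, by 2.13-fold to 2.30-fold, and Cox7a2 exceeded Cox7a1 in the 4 white ones, by 1.81-fold to 3.23-fold.

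Cox8b, the muscle-type form of subunit VIII, was at 270 and 294 FPKM in KO-labelled beige, against 21.7 and 23.7 FPKM in KO-labelled white cultures. In WT it was at 156 and 183 FPKM in beige cultures, against 27.9 and 29.1 FPKM in white cultures. Beige libraries were above white ones without overlap in both genotypes. Its log2 fold change was 3.58 in KO-labelled and 2.53 in WT cultures (SE 0.11 each, adjusted p 1.39e-07 and 8.47e-07). Cox8a, the widespread partner, was at 858 and 987 FPKM in KO-labelled beige, against 288 and 294 FPKM in KO-labelled white cultures. It was at 878 and 887 FPKM in WT beige, against 296 and 283 FPKM in WT white cultures, and rose by 1.66 and 1.60 (log2, SE 0.12 each, adjusted p 4.70e-06 and 9.29e-06). By FPKM Cox8a stayed above Cox8b in every one of the 12 libraries, by only 1.10-fold in control C3H10T1/2 replicate 1. The transcript lengths used for FPKM are not given, so such a narrow order is uncertain.

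Cox6a2, the muscle-type form of subunit VIa, was low everywhere. It was at 15.8 and 17.9 FPKM in KO-labelled beige, against 0.945 and 0.925 FPKM in KO-labelled white cultures. WT cultures had 14.6 and 15.0 FPKM in beige cultures, against 0.534 and 1.52 FPKM in white. The groups did not overlap, and the log2 fold changes were 3.20 and 3.01 (SE 0.20 each, adjusted p 2.23e-06 and 5.17e-06). Because the white values lie near the pseudocount of 1, the log2(FPKM + 1) scale understates these changes. Itgad, the overlapping gene, was listed at 15.9 and 13.7 FPKM in KO-labelled beige, against 0.0410 and 0.0871 FPKM in KO-labelled white cultures. Itgad was at 11.2 and 10.2 FPKM in WT beige, against 0.0483 and 0.124 FPKM in WT white cultures. With the counting strand unknown, reads of Cox6a2 and Itgad cannot be told apart here. The partner Cox6a1 was at 671 and 837 FPKM in KO-labelled beige, against 189 and 211 FPKM in KO-labelled white cultures. It was at 769 and 761 FPKM in WT beige, against 217 and 299 FPKM in WT white cultures, with log2 fold changes of 1.90 and 1.58 (SE 0.17 each, adjusted p 2.09e-05 and 8.78e-05).

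Cox4i2, the lung-type and oxygen-responsive form of subunit IV, was the rarest. It was at 6.40 and 4.04 FPKM in KO-labelled beige, against 0.535 and 1.45 FPKM in KO-labelled white cultures. In WT it was at 5.86 and 4.10 FPKM in beige cultures, against 1.01 and 0.544 FPKM in white cultures. The groups did not overlap and the log2 fold changes were 1.66 and 1.75 (SE 0.27 each, adjusted p 0.000662 and 0.000617), again understated at such levels. Cox4i1, the widespread partner, was at 840 and 895 FPKM in KO-labelled beige, against 251 and 241 FPKM in KO-labelled white cultures. WT beige libraries had 816 and 784 FPKM, against 265 and 338 FPKM in WT white ones, with log2 fold changes of 1.81 and 1.41 (SE 0.14 each, adjusted p 6.91e-06 and 4.23e-05). Cox4i1 outnumbered Cox4i2 by at least 131-fold in every primary library.

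**Figure D2:**
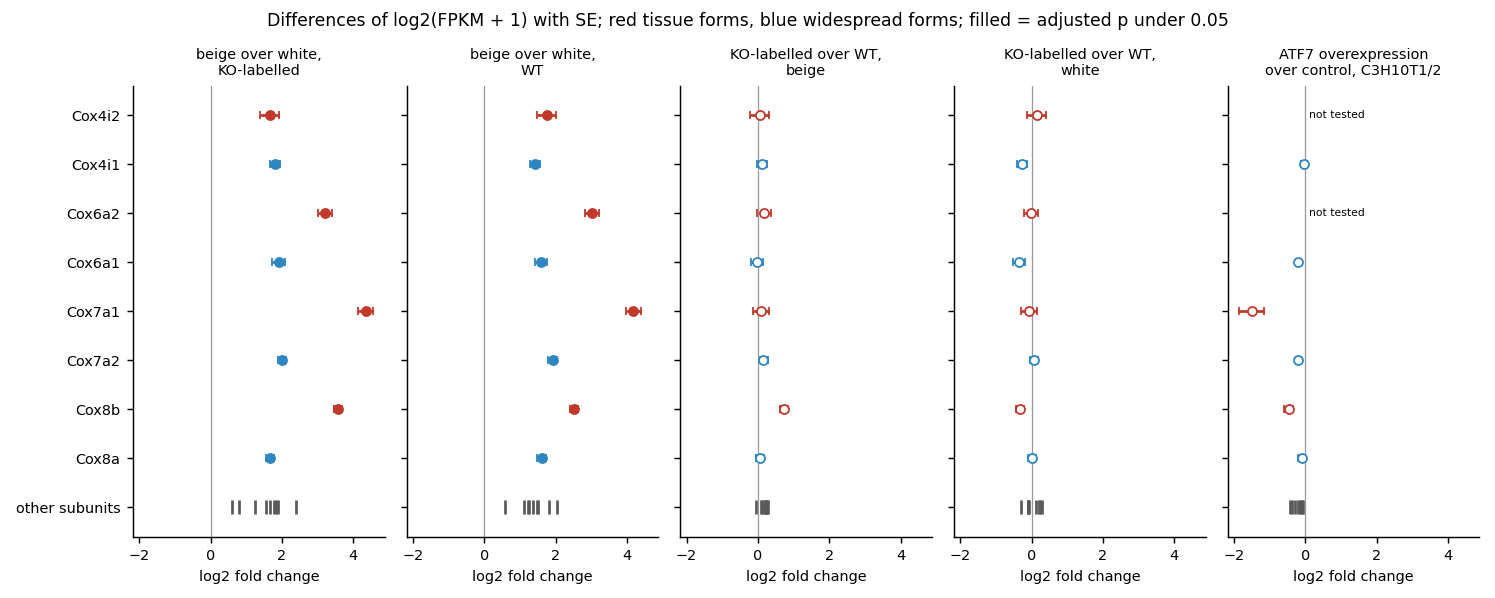
Differences of log2(FPKM + 1) of each gene (points, bars are SE; filled points have an adjusted p under 0.05) in 5 comparisons, with the other complex IV subunits tested as grey ticks. Beige over white is positive for all 8 genes, from 1.41 to 4.34, while no point is filled in the comparisons of ATF7.

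The shares of the pairs separate a shift between forms from a joint rise of both. Cox7a1 held 68.1% to 69.7% of its pair in the 4 beige libraries, against 23.7% to 35.6% in the 4 white ones, a difference of 38.2 percentage points. Cox8b held 15.1% to 23.9% in beige, against 7.03% to 9.32% in white, a difference of 11.7 points. Cox6a2 held 1.86% to 2.30% in beige, against 0.246% to 0.506% in white. None of these 3 pairs overlapped between beige and white, and each gave a two-sided exact permutation p of 0.0286, the smallest that 4 against 4 libraries allow, which became 0.0762 after adjustment over 8 tests and so misses 0.05. Cox4i2 held 0.449% to 0.756% in beige, against 0.161% to 0.596% in white, with overlap (difference 0.273 points, exact permutation p 0.114, adjusted 0.229). The Cox4i2 levels behind these shares were only 0.535 to 1.45 FPKM in white cultures, where both libraries of a group differed widely.

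**Figure D3:**
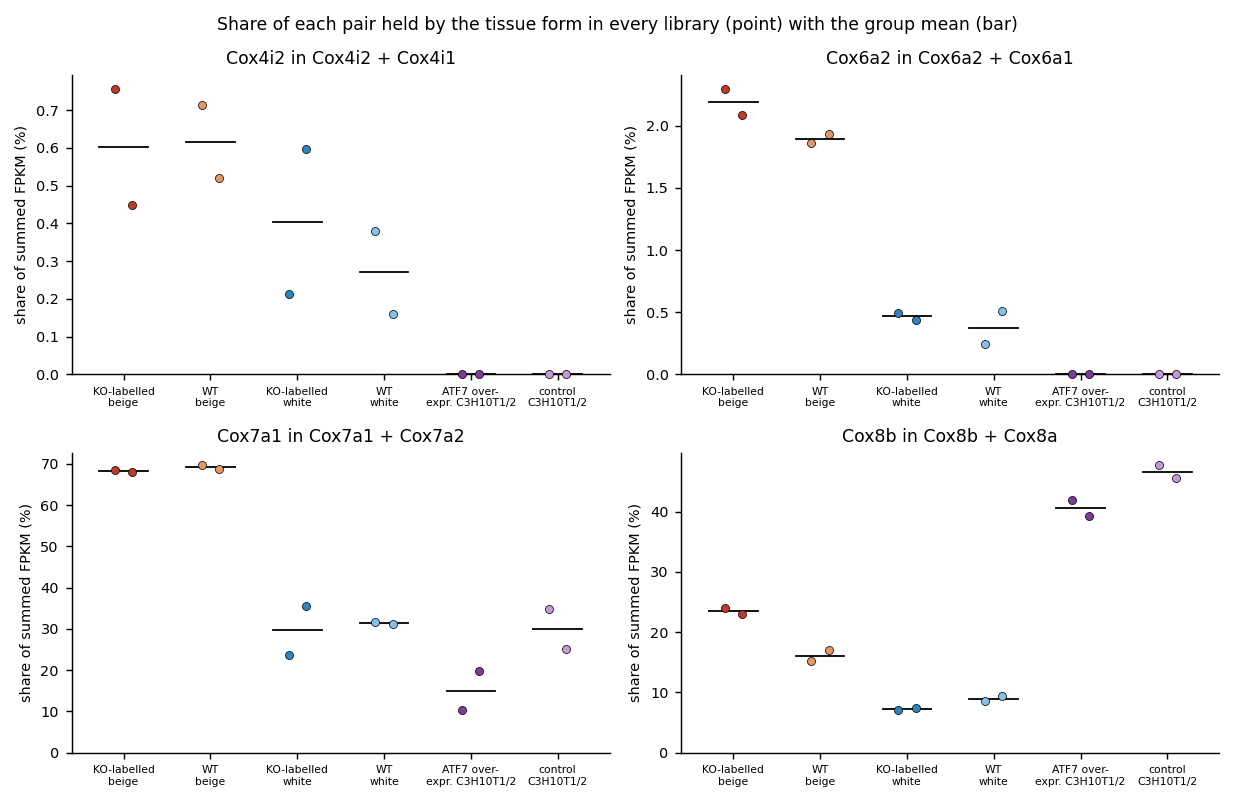
Share of the summed FPKM of each pair held by the tissue form (percent, axes from 0 with a different top for each panel), one point per library and a bar for the mean of 2. Cox7a1 lies near 69% in all 4 primary beige libraries, while Cox8b is highest in C3H10T1/2, between 39.2% and 47.7%.

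The rise extended over complex IV and to complexes I and III and ATP synthase. Among 11 other complex IV subunit genes 9 were tested, and 8 rose in KO-labelled and 9 in WT cultures, with median log2 fold changes of 1.66 and 1.37. For this and the next lists, 26.6% and 21.6% of all tested genes were called higher. Cox5a, subunit Va, moved furthest (2.39 and 2.02), followed by Cox5b, subunit Vb (1.88 and 1.82), and Cox7a2l, which tethers complex III to complex IV in supercomplexes, moved least (0.59 and 0.58). Cox6b2, the testis form of subunit VIb, passed in WT cultures (1.12, adjusted p 0.0158) and not in KO-labelled ones (0.79, adjusted p 0.058). Of 65 subunit genes of complexes I and III and of ATP synthase, 64 rose in KO-labelled and 63 in WT cultures (medians 1.62 and 1.39). Complex II was not examined. Of 26 assembly factor genes of complex IV 24 were tested, and 20 rose and 0 fell in KO-labelled cultures, against 18 up and 1 down, Pet100, in WT cultures (medians 0.88 and 0.56). Among the assembly factors Lrpprc, which stabilises mitochondrial messenger RNAs, rose by 1.73 and 1.21, and Taco1, a translational activator of the mitochondrial Cox1 message, by 1.11 and 1.01.

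A reference median was taken over 6 other complex IV subunits: Cox5a, Cox5b, Cox6b1, Cox6c, Cox7b and Cox7c. Of these, at least Cox6b1 has a second form, Cox6b2. Cox7a1 stood at 1.66 to 2.07 times the reference median in beige libraries, against 0.264 to 0.441 times in white ones. Cox8b stood at 0.604 to 0.926 times in beige, against 0.298 to 0.386 times in white. Cox7a2 stayed at 0.779 to 0.898 times in beige, against 0.684 to 0.869 times in white, so the ranges overlapped. Cox8a was lower on this scale in beige, at 2.95 to 3.39 times, against 3.65 to 4.09 times in white cultures.

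Other genes of heart and muscle type energy metabolism moved in the same direction. Of 8 listed 7 were tested, and 6 rose in KO-labelled and 7 in WT cultures (medians 3.55 and 3.05). Of all tested genes, 26.6% and 21.6% were called higher. Cpt1b, the muscle-type carnitine palmitoyltransferase, changed by 5.82 and 5.44, Chchd10, a mitochondrial intermembrane space protein, by 5.24 and 4.86, and Fabp3, the heart-type fatty acid binding protein, by 4.66 and 3.49. Pdk4 changed by 3.55 and 3.05. The remaining tested genes moved far less: Acsl1 by 0.77 and 0.54, Slc25a4 by 0.66 and 0.64, and Ucp3 by 0.30 (not called) and 0.52. Of 32 genes of the sarcomere and its regulators, 28 stayed under 1 FPKM in all 12 libraries, and Myod1, Myog and Myh6 were listed at 0 in all of them. Of the 3 tested, 2 rose in both KO-labelled and WT cultures, Acta1, skeletal muscle actin (1.08 and 0.55), and Des, the muscle intermediate filament desmin (0.67 and 0.39). The third, Myl1, a skeletal muscle myosin light chain, fell (-0.99 and -1.31). The summed level of the 32 genes was 5.19 to 6.98 FPKM in beige cultures, against 8.23 to 9.61 FPKM in white cultures, and Myl1 alone was 1.36 to 1.92 FPKM, against 4.17 to 5.62 FPKM.

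Markers of other cells differed strongly between the same cultures. The summed FPKM of 16 macrophage genes was 36.7 to 48.7 in beige, against 560 to 870 in white libraries, with none at 0 in either. The sum of 13 preadipocyte and stromal genes was 657 to 925 FPKM in beige cultures, against 3773 to 4820 FPKM in white. The sum of 15 core adipocyte genes was 11964 to 13435 FPKM in beige cultures, against 4541 to 6914 FPKM in white, with none of these genes at 0. In bulk samples such as these, fewer cells of a type and less RNA per cell cannot be told apart, and the part that cell composition has in the rise of the 8 genes was not tested. For Cox4i2, which pericytes are known to express, the sum of 13 pericyte and smooth muscle genes was 179 to 205 FPKM in beige cultures, against 144 to 199 FPKM in white cultures. Of these 13 genes 9 were tested, of which 2 rose and 4 fell in KO-labelled and 2 rose and 7 fell in WT cultures. Of all 11294 genes tested, 3009 rose and 3878 fell in KO-labelled cultures, against 2440 and 3629 in WT cultures. The 2 pericyte and smooth muscle genes that rose in both were Ndufa4l2, a paralogue of Ndufa4 (1.56 and 1.75), and Cspg4, the NG2 proteoglycan (2.49 and 1.94). Among the members too low to be tested, Rgs5 and Higd1b were listed at 0 in all 4 beige libraries, and Kcnj8 did not exceed 0.0258 FPKM there. These members were picked after their values were seen, and other pericyte genes of the list, among them Pdgfrb and Abcc9, passed the filter. The part of pericytes in the level of Cox4i2 was not tested.

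Cox4i2 stood beside a rise of genes of the hypoxia response. Of 13 such genes, 11 rose and 1 fell in KO-labelled cultures, against 12 up and 1 down in WT cultures (beige over white, medians 1.53 and 1.89). Egln3, an oxygen sensor that marks HIF proteins for decay, was at 74.3 and 37.1 FPKM in KO-labelled beige, against 4.80 and 9.48 FPKM in KO-labelled white cultures. It was at 85.5 and 69.0 FPKM in WT beige, against 2.31 and 1.84 FPKM in WT white cultures. In each of the 4 primary groups the library with more Cox4i2 also had the higher sum over the 13 hypoxia genes, a pattern noticed in these values and not tested. In KO-labelled beige cultures these sums were 1440 and 1095 FPKM beside Cox4i2 at 6.40 and 4.04 FPKM. In KO-labelled white cultures they were 479 and 627 FPKM beside 0.535 and 1.45 FPKM. Among 4 genes known to act in the oxygen response of Cox4i2, Chchd2 rose (1.66 in KO-labelled, 1.19 in WT) and Hif1a fell (-0.48 and -0.65). Cxxc5 fell in KO-labelled cultures (-0.36, adjusted p 0.0276), and Rbpj was called in neither.

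In beige cultures, 0 of 8 genes were called between KO-labelled and WT, where 0.151% of all tested genes were called, 17 of 11294 (1160 had an unadjusted p under 0.05). Among the 8, Cox8b alone had an unadjusted p under 0.05. Its values of 270 and 294 FPKM in KO-labelled, against 156 and 183 FPKM in WT beige cultures, did not overlap, a ratio of means of 1.66, with a log2 fold change of 0.73 (SE 0.11) and an adjusted p of 0.0678. Only 0.372% of tested genes had a larger fold change. The other 7 had log2 fold changes between -0.03 and 0.17. The share of Cox8b in its pair was 23.9% and 22.9% in KO-labelled, against 15.1% and 17.1% in WT beige cultures, without overlap, while Cox8a itself differed by 0.06 (SE 0.12). Relative to the reference median of 6 other subunits, Cox8b stood at 0.926 and 0.888 times in KO-labelled, against 0.604 and 0.694 times in WT beige cultures. The summed level of 15 thermogenic genes was 478 and 496 FPKM in KO-labelled, against 351 and 364 FPKM in WT beige cultures. None of the 13 thermogenic genes tested was called in this comparison, and 11 of 13 had positive fold changes.

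In white cultures, 0 of 8 were called, where 1.89% of all tested genes were called, 213 of 11294 (2246 had an unadjusted p under 0.05). Cox8b was at 21.7 and 23.7 FPKM in KO-labelled, against 27.9 and 29.1 FPKM in WT white cultures, again without overlap but in the other direction (-0.32, SE 0.11, adjusted p 0.172). Cox4i1 and Cox6a1 also lay lower in both KO-labelled libraries, with log2 fold changes of -0.28 (SE 0.14) and -0.35 (SE 0.17) and adjusted p-values of 0.295 and 0.306. The remaining 5 had fold changes between -0.08 and 0.14. In the same comparison the core adipocyte genes summed to 4541 and 4652 FPKM in KO-labelled libraries, against 5913 and 6914 FPKM in WT libraries, and the macrophage genes to 817 and 870 FPKM, against 560 and 621 FPKM. Of the 16 macrophage genes 6 rose, and 3 of 15 core adipocyte genes fell. Their part in the values of the 8 genes was not tested.

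The difference between these effects was tested as an interaction of genotype and rosiglitazone. It was called for 1 of the 8 genes, Cox8b, where 0.292% of all tested genes were called, 33 of 11294. The ATF7KO-over-WT difference of Cox8b was larger in beige than in white by 1.05 on the log2 scale (SE 0.16, adjusted p 0.0416). This call is narrow: the value kept its sign in each alternative, but the adjusted p was 0.0572 to 0.27 when any one of the 8 libraries was left out, 0.0589 with a pseudocount of 0.1 and 0.0951 without the filter on low values. For the other 7 the interaction lay between -0.09 and 0.40, with adjusted p-values from 0.337 to 0.926. Of the other complex IV subunits 0 of 9 were called in KO-labelled against WT cultures, beige or white, or in the interaction. Over all 8 primary libraries, no share of a pair passed the test between KO-labelled and WT cultures (two-sided exact permutation p 0.571 to 0.857, adjusted 0.816 to 0.857). Each group in this test spans beige and white, whose difference enters its spread (SD 22.8 and 21.8 points for Cox7a1). Opposite differences also cancel, as for Cox8b (7.33 points in beige, -1.72 in white). The test therefore cannot decide whether genotype alters a share within beige or white cultures.

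In C3H10T1/2 cells with ATF7 overexpressed, 0 of 6 tested genes were called against control, where 1.49% of all tested genes were called, 149 of 9981 (1715 had an unadjusted p under 0.05). All 6 had negative fold changes, as had 8 of 8 tested other complex IV subunits (median -0.17), none of which was called. The 6 had a median of -0.20, beside -0.02 for all genes tested. Cox7a1 was at 22.6 and 48.6 FPKM with overexpression, against 117 and 79.0 FPKM in control cells. The groups did not overlap, but the 2 libraries of the overexpression group differed widely between themselves. The log2 fold change was -1.51 (SE 0.35, adjusted p 0.106), and without control replicate 2 it was -1.79 with an adjusted p of 0.046, a value that assumes the lone control library to vary like the 2 overexpression libraries and rests on 1 residual degree of freedom. Cox8b was at 667 and 512 FPKM with overexpression, against 821 and 792 FPKM in control cells (-0.46, SE 0.13, adjusted p 0.152; 0.0452 after quantile normalization, with a fold change of -0.42).

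The shares of both pairs were lower with overexpression. Cox7a1 held 10.3% and 19.8% of its pair, against 34.9% and 25.2% in control cells, and Cox8b held 41.9% and 39.2%, against 47.7% and 45.6%. Neither pair overlapped between groups, and 2 against 2 libraries cannot give a two-sided exact p below 0.333, so no test was made. Among the other genes of muscle-type energy metabolism 3 of 7 fell, Fabp3 (-1.71), Cpt1b (-1.53) and Pdk4 (-0.51), and Chchd10 had -1.02 with an adjusted p of 0.0956. Of 11 tested thermogenic genes 8 fell, among them Ucp1, at 1.08 and 0.820 FPKM with overexpression, against 8.71 and 6.82 FPKM in control cells (-2.16, adjusted p 0.00198).

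Levels of several forms differed between primary beige cultures and the C3H10T1/2 line. Cox4i2 and Cox6a2 were listed at 0 in all 4 C3H10T1/2 libraries, so no fold is given for them, and an exact 0 in FPKM can be a failed estimate. Surf1, an assembly factor of the complex that most cells express, was likewise listed at 0 in all 8 primary libraries. Set against WT primary beige cultures in a fit of all 12 libraries, 5 of 8 genes were called in either direction, where 56.4% of all tested genes were, so the count is no result about the 8. These 5 were Cox4i2 and Cox6a2, listed at 0 in the line, with Cox7a1 and Cox6a1 higher and Cox8b lower in primary cells. Cox7a1 was at 535 and 460 FPKM in WT primary beige cultures, against 117 and 79.0 FPKM in control C3H10T1/2 cells (2.36, SE 0.33, adjusted p 0.000173). Cox8b went the other way, at 156 and 183 FPKM in WT primary beige, against 821 and 792 FPKM in control C3H10T1/2 cells (-2.25, SE 0.13, adjusted p 2.47e-07). Of all tested genes, 98.8% had a larger fold change than Cox8b. Primary cells and line differ in origin as well as in culture, and these cannot be told apart.

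Of the 4 widespread forms, Cox6a1 was called between primary beige cells and the line and the other 3 were not. Cox8a was at 878 and 887 FPKM in WT primary beige, against 900 and 947 FPKM in control C3H10T1/2 cells (-0.07, SE 0.11, adjusted p 0.637). After quantile normalization this turned to 0.50 (adjusted p 0.0063), and Cox4i1, at 0.05 (SE 0.12), was also called, at 0.52. Cox7a2 was at 232 and 210 FPKM, against 218 and 235 FPKM (-0.03, SE 0.10). Cox6a1 was higher in WT primary beige, at 769 and 761 FPKM, against 538 and 511 FPKM (0.55, SE 0.15, adjusted p 0.0119). Among the 9 other complex IV subunits tested 3 were higher and 2 lower in primary cells. With 56.4% of all tested genes called in either direction, that count is no result about these subunits. The higher were Cox6b2 (1.70), Cox5b (0.71) and Cox5a (0.30). The lower were Ndufa4, a later-recognised subunit of the complex (-0.76), and Cox6c (-0.38). The mitochondrial protein gene Chchd10 was at 568 and 573 FPKM in WT primary beige, against 5.99 and 5.57 FPKM in control C3H10T1/2 cells, whereas Fabp3 was at 16.5 and 18.0 FPKM, against 99.9 and 113 FPKM.

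**Figure D4:**
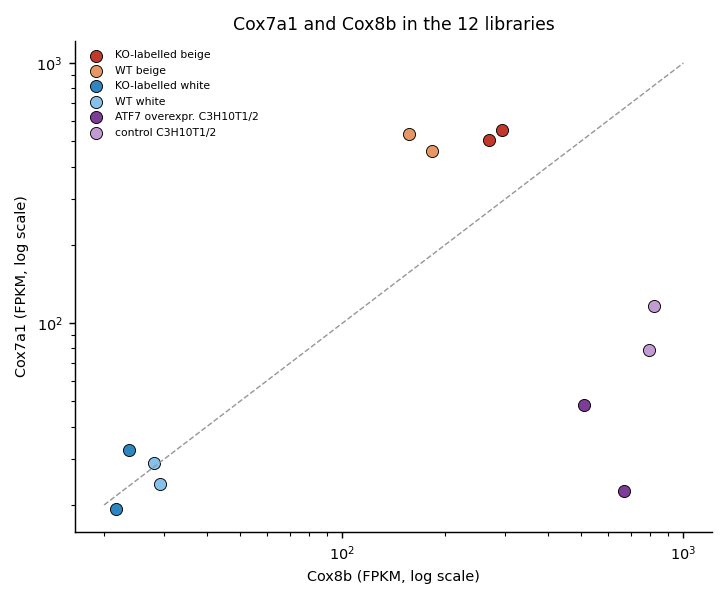
Cox7a1 against Cox8b in the 12 libraries (FPKM, both axes logarithmic; the dashed line marks equal values). Primary beige libraries lie above the line, white ones close to it, and C3H10T1/2 ones far below it, with Cox8b 7.03-fold to 29.6-fold above Cox7a1.

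Cox7a1 and Cox8b, which are used side by side as markers of brown and beige fat, had no fixed ratio. Cox7a1 over Cox8b was 1.87 and 1.87 in KO-labelled beige, against 3.42 and 2.52 in WT beige cultures. It was 0.885 and 1.37 in KO-labelled white, against 1.04 and 0.826 in WT white cultures. In C3H10T1/2 it was 0.0338 and 0.0949 with ATF7 overexpressed, against 0.142 and 0.0998 in control cells. Ordered by mean level, Cox7a1 ran from KO-labelled beige and WT beige, which overlapped, through control C3H10T1/2 to the overexpression and both white groups, which overlapped their neighbours. Cox8b ran from control C3H10T1/2 through the overexpression group, KO-labelled beige, WT beige and WT white to KO-labelled white, with no overlap between neighbours.

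Across the 12 libraries, as a description of points that share culture and line, Pearson's r of log2(FPKM + 1) was 0.404 between Cox7a1 and Cox8b, 0.929 between Cox8a and Cox8b and 0.994 between Cox7a2 and Cox8a. Within the 8 primary libraries alone, where beige and white form separate groups, it was 0.905 to 0.997 for every pair of the 8 genes. Among 11002 genes compared over the 12 libraries, the 3 most like Cox7a1 were Pgam1 (r 0.984), a glycolytic phosphoglycerate mutase, Decr2 (0.983), a peroxisomal dienoyl-CoA reductase, and Pkp2 (0.981), a desmosomal plakophilin. The 3 most like Cox8b were Cpt2 (0.997), the inner-membrane carnitine palmitoyltransferase, Gpx4 (0.996), a lipid peroxide reductase, and Entpd5 (0.995). Mt2, a metallothionein (0.991), Pfkp, a phosphofructokinase (0.988), and Mfge8 (0.986) were most like Cox4i2. F11r, a tight junction protein, Sars, the seryl-tRNA synthetase, and Trib3, a stress-induced pseudokinase, were most like Cox6a2 (0.994 each). Cox4i2 and Cox6a2 were listed at 0 in every C3H10T1/2 library, which can be a failed estimate, and were low in white cultures. Their r values rest in part on these libraries, and reads of Cox6a2 cannot be told apart from those of Itgad.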

How the data were processed

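The 12 libraries were put into 6 groups of 2 by their labels. The labels' protocols give TRIZOL extraction, removal of ribosomal RNA and directional libraries with paired reads of 36 bases. The authors deposited 1 FPKM value per gene and library. The genome build was mm10, per the submitters' processing notes, and no source used here gives the aligner, the quantifier or the counting strand. FPKM values showed no shared step from which reads could be recovered (of 3185 low genes compared between both WT beige libraries, at most 12 had the same ratio, to 3 decimals), so depth is unknown and intervals for counting error are not given. Starts were counted from 0 in the files and 1 was added.

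Genes that reached 1 FPKM in 2 or more of the fitted libraries were tested on log2(FPKM + 1) with limma 3.58.1, using eBayes with a trend, under R 4.3.3. The 8 primary libraries shared 1 fit (4 residual degrees of freedom), the 4 C3H10T1/2 libraries another (2), and all 12 a further one (6) for WT primary beige over control C3H10T1/2. The fits were tested on simulated data. Benjamini-Hochberg adjusted p-values cover all genes of a fit. Shares were compared with two-sided exact permutation tests in scipy 1.17.1. The most similar genes were the 3 with the highest Pearson's r to each tissue form over 12 libraries, without predicted and small RNA genes. The 8 genes and the 12 other gene lists were chosen with earlier results of these data known, so no list is independent support. Of a list, up to 4 members with the lowest p in WT beige over white could be named, beside Atf7 and Ucp1. Cox6b2, Cox7a2l, Ndufa4, Cox6c, Pet100, Surf1, Acta1, Des, Myl1, Ndufa4l2, Cspg4, the overlapping Itgad and single marker genes listed at or near 0 were named after their values were seen. So were Acsl1, Slc25a4 and Ucp3. Replicate numbers did not pair the libraries: deviations of same-numbered libraries correlated at -0.129 to 0.124 between groups. Alternatives were a pseudocount of 0.1, no filter, quantile normalization, median centring (added after the data were seen), a replicate block, all libraries in 1 fit, and each library left out.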

Additional observations from a re-analysis of the deposited data

Results flagged for a closer look

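Cox8b differed between beige and white cultures in its ATF7KO-over-WT difference. Both KO-labelled libraries lay above both WT ones in beige and below both in white, and the interaction was 1.05 on the log2 scale (SE 0.16, limma adjusted p 0.0416). Neither difference was called on its own (limma adjusted p 0.0678 in beige and 0.172 in white). The interaction call is narrow and was lost with a pseudocount of 0.1 and without the filter on low values.

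The share of Cox8b in its pair with Cox8a showed the same opposite directions. KO-labelled minus WT was 7.33 percentage points in beige and -1.72 points in white, a difference of 9.06 points that was not tested on its own. It rests on the same Cox8b values as the interaction, and its cause was not tested.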

How the results depend on the processing

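The rise of all 8 genes in beige over white kept its direction and an adjusted p under 0.05 in both genotypes under each alternative run (160 values, log2 fold changes 1.24 to 4.71, adjusted p at most 0.00765). The calls around ATF7 did not. Genes called between KO-labelled and WT numbered 27 in beige with a replicate block, with Cox8b among them (1 of 8 members, adjusted p 0.0404), and 26 with all 12 libraries in 1 fit, against 17 in the report. In white they numbered 54 with a pseudocount of 0.1, 122 with no filter, 387 after quantile normalization (50.4% of calls higher, against 67.1% in the report) and 642 in 1 fit, against 213; with median centring 52.8% were higher. In the interaction they numbered 20 with the pseudocount of 0.1 and 116 in 1 fit, against 33. The Cox8b interaction had an adjusted p of 0.0589 with the pseudocount of 0.1 and 0.0951 with no filter, leaving 0 members called. With overexpression 22 genes were called with no filter and 88 with a replicate block, against 149, and 1 member (Cox8b) after quantile normalization. The block changed no other member's call. Quantile normalization and median centring moved the median of all genes in WT beige over white from -0.10 to 0.02 and 0.01, and higher calls from 40.2% to 50.9% and 51.4%.

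Leaving out 1 library at a time gave 5 to 20 genes in beige (5 without WT beige replicate 1), 23 to 277 in white (23 and 25 without either KO-labelled library, 43 without WT replicate 2), 16 to 43 in the interaction and 17 to 138 with overexpression (17 and 29 without either overexpression library). It gave 0 members in the interaction and 0 to 1 with overexpression (Cox7a1), where each such fit assumes the lone library to vary like the other group. Beige minus white shares ranged from 35.95 to 39.92 points for Cox7a1, 10.27 to 13.21 for Cox8b and 1.54 to 1.685 for Cox6a2, where 3 against 4 libraries cannot give an exact permutation p below 0.0571. KO-labelled minus WT shares changed sign: -7.829 to 7.103 for Cox7a1, -0.05518 to 5.574 for Cox8b, -0.1285 to 0.4918 for Cox6a2 and -0.03408 to 0.1571 for Cox4i2.

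Small uncalled differences also changed sign. For KO-labelled over WT in white these were Cox6a2 (0.030 with the pseudocount of 0.1) and Cox8a (-0.025 with median centring), and after quantile normalization Cox8a with overexpression (0.043) and in WT primary beige over control C3H10T1/2 (0.50). With a library left out, ranges crossing 0 were, in beige, Cox4i2 -0.23 to 0.32, Cox6a1 -0.19 to 0.13, Cox7a1 -0.021 to 0.20 and Cox8a -0.039 to 0.16. In white they were Cox4i2 -0.20 to 0.47, Cox6a2 -0.38 to 0.33, Cox7a1 -0.44 to 0.28, Cox7a2 -0.059 to 0.18 and Cox8a -0.027 to 0.039. In the interaction they were Cox4i2 -0.43 to 0.24, Cox6a2 -0.16 to 0.55, Cox7a1 -0.20 to 0.53, Cox7a2 -0.033 to 0.21 and Cox8a -0.046 to 0.16. Cox8a with overexpression ranged from -0.22 to 0.0039 and Cox7a2 in WT primary beige over control C3H10T1/2 from -0.11 to 0.038. The causes were not tested. Summing over loci changed nothing, since each member has 1 locus.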
